A study of Homo sapiens with 13 samples.

Results

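Nalm16 and Nalm30 are cell lines of B-cell precursor acute lymphoblastic leukemia (BCP-ALL), and they were set here against 4 other BCP-ALL lines, 697, Nalm6, REH and RS4,11 (usually written with a semicolon in place of the comma). They are 2 of 6 BCP-ALL lines and 2 of 13 lines in all, the other 7 being T-ALL lines (ALL-SIL, CCRF-CEM, HPB-ALL, Jurkat, Molt4, P12-ICHIKAWA and TALL-1). The lines, all untreated, were grown for 30 h in medium with fetal bovine serum before RNA extraction, and each was read on 1 Affymetrix whole-genome array. The labels give the line and the leukemia type, with no genotype, karyotype or fusion, and each line stands for 1 leukemia or 1 clone. The pair was chosen on its measured array values, which stood apart from those of the other lines, and also for slow growth, which was not analysed here. Differences between the pair and the other BCP-ALL lines are therefore given as a description with no test. With 2 lines against 4, an exact two-sided permutation test of a single gene could give no p below 0.067. The spread given is between lines, with no repeat culture of any of them.

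A precursor B cell assembles its immunoglobulin heavy chain gene by cutting and rejoining DNA with the RAG1 and RAG2 enzymes, displays the heavy chain with a surrogate light chain as the pre-B-cell receptor, and depends on transcription factors such as PAX5 and EBF1 to hold its lineage. BCP-ALL cells are arrested at this stage. They are usually killed by glucocorticoids, which act through the receptor encoded by NR3C1.

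All values are log2(signal + 16), so that 4 is the floor of the scale, and a value below 5 is called near the floor. Differences on this scale understate the change of dim genes. Of 18574 genes, each read by the probe set with its highest mean, 12413 were kept because they exceeded the median of their array in at least 2 of the 6 BCP-ALL arrays. A gene with high values in the pair alone could pass this filter. A gene was called when the mean of the pair differed from that of the 4 other lines by at least 1 log2 unit and both arrays of the pair lay above, or below, all 4 others.

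The arrays carried the labelled lineage. CD79A, the signaling chain of the B-cell receptor, was at 10.36 in Nalm16 and 10.43 in Nalm30, against 9.28 to 11.10 in the 4 other lines and at most 8.15 in T-ALL. PAX5 was at 10.66 in both lines of the pair, against 10.52 to 11.27 in the other BCP-ALL lines and at most 4.59 in T-ALL. IGLL1, a surrogate light chain component, was at 12.04 and 11.997 in Nalm16 and Nalm30, against 11.71 to 12.08. VPREB1, its partner, was at 10.80 and 10.89 in the pair, against 10.70, 10.86, 4.15 and 11.38 in 697, Nalm6, REH and RS4,11, so that only REH lacked it. Of the 21 T-lineage markers measured, 14 were near the floor in both arrays of the pair, CD3D, CD3E and CD3G among them, and the mean level of the list was 5.09 to 5.19 in the pair and 4.75 to 5.19 in the 4 others. For 18 myeloid markers the mean level was 5.19 to 5.22 in the pair and 5.04 to 5.35 in the others. MPO, which defines the granulocytic lineage, was at 5.13 and 5.17 in the pair and at 12.11 in REH alone, and its difference of -1.85 was -0.15 without REH. CD34 was low in all 6 lines (5.70 and 5.82 in the pair, 5.18 to 5.63 in the others).

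The arrays of Nalm16 and Nalm30 resembled each other far more than any other line. Over kept genes, their Pearson r was 0.949, while each of them reached 0.686 to 0.789 with the 4 other BCP-ALL lines, which among themselves ran from 0.857 to 0.871. The pair correlated at 0.633 to 0.723 with T-ALL lines, and the 4 other BCP-ALL lines at 0.790 to 0.854 with the same T-ALL lines. The highest partner of both was RS4,11, at 0.740 for Nalm16 and 0.789 for Nalm30. Nalm16 and Nalm30 differed by at least 1 log2 unit at 9.62% of kept genes, against 27.1% to 41.5% between a line of the pair and another BCP-ALL line and 13.3% to 15.6% among the 4 others. Among T-ALL lines the share ran from 0.22% to 17.8% and r from 0.870 to 0.993. The closeness of Nalm16 and Nalm30 was thus within the range of T-ALL lines. The labels do not say whether Nalm16 and Nalm30 come from different patients, and their differences from the 4 others, which share those controls, are not independent readings.

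**Figure D1:**
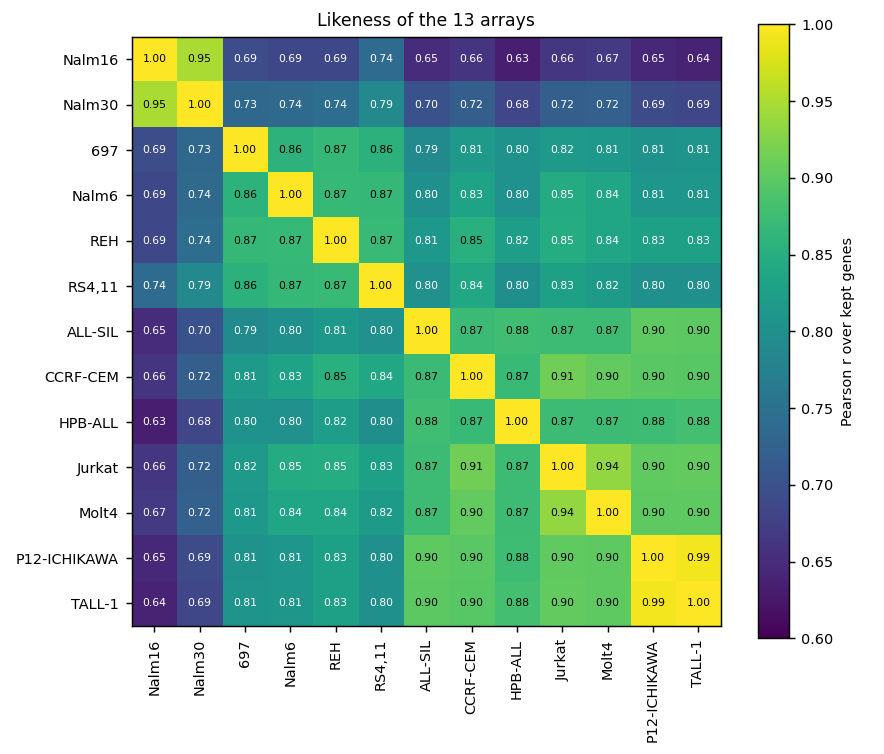
Pearson r over kept genes for each pair of the 13 arrays, with Nalm16 and Nalm30 first, then the other BCP-ALL and the T-ALL lines (color from 0.6 to 1). The first 2 rows are dark except where Nalm16 meets Nalm30, at 0.95.

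The arrays of the pair also differed in the spread of their values. Their medians were 5.05 and 5.09, against 5.22 to 5.37 in the 4 others, their upper quartiles 6.54 and 6.89, against 7.04 to 7.33, and 10.2% and 8.45% of their probe sets lay within 0.05 of the floor, against 4.19% to 5.34%. The signal of the 3′ end of GAPDH exceeded that of its 5′ end by 0.21 and 0.10 log2 units in Nalm16 and Nalm30, against -0.04 to 0.03 in the 4 others, whereas for actin the gap was 0.40 and 0.54 in the pair and 0.09 to 0.57 in the others. The part of these features in the differences was not tested. Any scaling between arrays is not stated by the labels or methods, and the balance of calls moved with scaling. As deposited, 1057 genes were called higher (8.52% of those kept) and 2340 lower (18.9%) in the pair, and the median difference over kept genes was -0.06. After quantile normalization of the 13 arrays there were 2008 higher and 1729 lower with a median difference of 0.24, and after centring each array on its median 1585 and 1846 with a median of 0.16. Lower calls were thus in excess as deposited and after centring, but not after quantile normalization, and a small difference is best read relative to those medians. On the deposited scale, 279 genes were called higher by at least 2 log2 units and 812 lower, and 27 and 8 by at least 5.

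At the edge of the rule, PRMT2 stood at the limit on the high side and MPND just outside it (0.999), while ARRB1 (-1.0007) and POLI (-0.99994) stood on either side of the low limit. Among called genes with several probe sets, every probe set ran the same way for 383 of 597 higher genes and for 1370 of 1722 lower ones. Of the genes given below, IKZF2, RFXAP, CDKN2D, BAD, ABCC4, BNIP3L, SC5D and S100A13 passed 1 unit in only 1 of several probe sets. For CDKN2D, BNIP3L and S100A13 the other probe set ran the opposite way. The same rule was also set against all 11 other lines. The T-ALL arrays took no part in the calls but helped to pick the probe set of each gene, and the pair was chosen for standing apart from the other lines, so that this is no independent reading. Of the 1057 genes called higher, 717 (67.8%) were also called higher against all 11 other lines, and of the 2340 called lower, 1861 (79.5%) were also called lower.

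**Figure D2:**
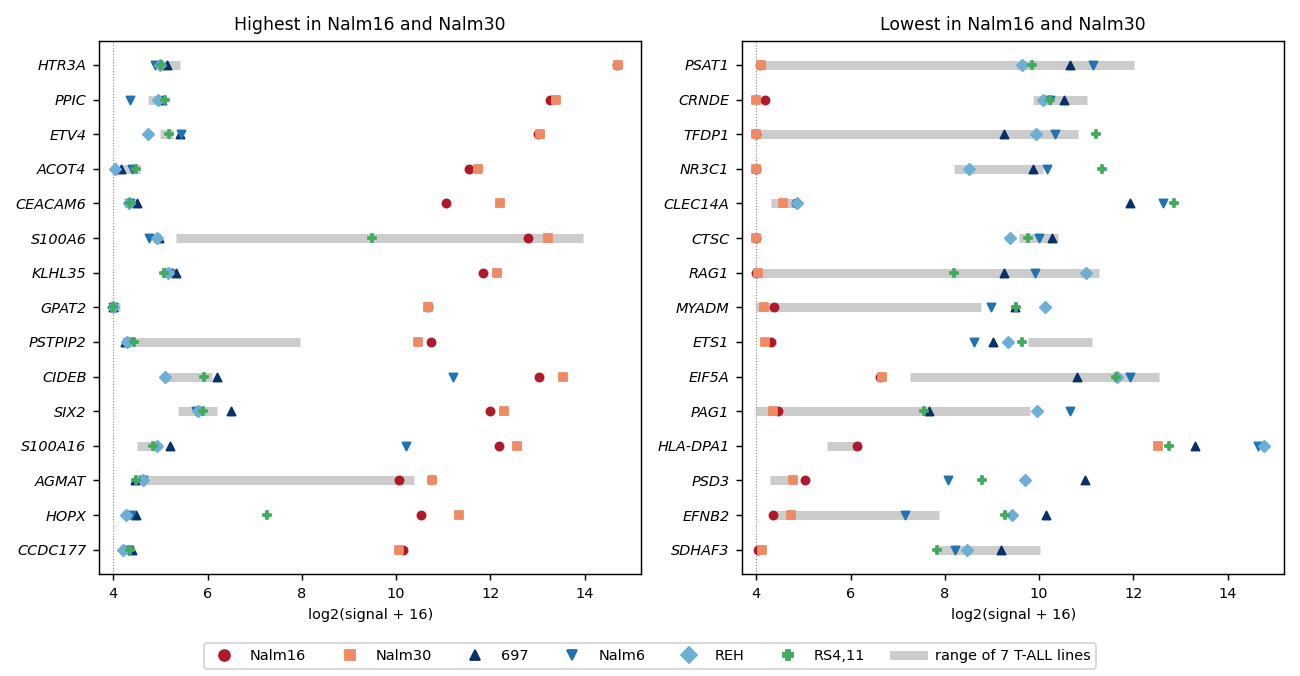
Level of the 15 called genes with the largest difference in each direction, as log2(signal + 16), with a point for each BCP-ALL line and a grey bar for the range of 7 T-ALL lines (dotted line, the floor of 4). Points of Nalm16 and Nalm30 lie close together at the right in the left panel and mostly near the floor in the right panel, with HLA-DPA1 and EIF5A above it.

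The gene with the largest difference encodes a neurotransmitter receptor. HTR3A, the ligand-gated serotonin receptor subunit (chromosome 11), was at 14.68 in Nalm16 and 14.70 in Nalm30, against 5.14, 4.89, 4.99 and 5.00 in 697, Nalm6, REH and RS4,11, a difference of 9.68 ± 0.20 (limma SE, n = 2 and 4 lines, as for every SE below). Its other probe set gave 12.87 and 12.73 in the pair, against 4.14 to 4.41. No T-ALL line exceeded 5.42. The groups did not come near each other, and the pair's level was among the top values of the scale. PPIC, a cyclophilin prolyl isomerase, was at 13.26 and 13.38, against 4.36 to 5.10 (8.46 ± 0.28). ACOT4, a peroxisomal acyl-CoA thioesterase, was at 11.55 and 11.73, against 4.04 to 4.48. GPAT2, a glycerol-3-phosphate acyltransferase best known from testis, was at 10.67 in both lines and at 4.0 in each of the 4 others. These were near the floor or low in all 4 other lines. CEACAM6, an adhesion molecule, was at 11.06 and 12.21, against 4.33 to 4.50. SIX2, a homeobox factor, was at 11.99 and 12.28, against 5.76 to 6.50. KLHL35 (6.80), PSTPIP2 (6.27), AGMAT (5.86) and CCDC177 (5.79) had differences of this order, though for KLHL35 only 1 of 3 probe sets passed 1 log2 unit. In T-ALL lines AGMAT reached 10.37, within the range of the pair, and PSTPIP2 reached 7.97.

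Not every gene of this tail was particular to the pair. S100A6, a calcium-binding protein, was at 12.79 and 13.22 in Nalm16 and Nalm30, against 4.96, 4.77, 4.93 and 9.49 in 697, Nalm6, REH and RS4,11, and reached 13.97 in T-ALL. S100A16, encoded nearby on chromosome 1, was at 12.17 and 12.56, against 10.21 in Nalm6 and 4.85 to 5.20 in the rest. CIDEB, a lipid droplet protein, was at 13.03 and 13.54, against 11.21 in Nalm6 and 5.11 to 6.19. HOPX, an atypical homeodomain protein, was at 10.52 and 11.34, against 7.26 in RS4,11 and 4.28 to 4.48. In each of these, 1 of the 4 other lines also had signal. For S100A6 the other probe set gave a difference of 0.22, and for HOPX the other probe sets gave 0.30 and -0.21, with all lines near the floor.

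On the low side, several genes were at the floor in both lines of the pair and well measured in every other BCP-ALL line. NR3C1, the glucocorticoid receptor (chromosome 5), was at 4.0 in Nalm16 and 4.0 in Nalm30, against 9.87, 10.17, 8.51 and 11.34 in 697, Nalm6, REH and RS4,11 (-5.97 ± 0.70). None of its 4 probe sets exceeded 4.09 in the pair, and the lowest T-ALL line was at 8.20. Every other line of the series thus had a signal that these lines lacked. CTSC, the lysosomal protease cathepsin C, was at 4.0 in both, against 9.37 to 10.26, and its 4 probe sets ran the same way. TFDP1, the DP subunit with which E2F factors bind DNA, was at 4.0 in both, against 9.26 to 11.20, in all 3 probe sets, although a T-ALL line was also at 4.0. CRNDE, a long noncoding RNA, was at 4.19 and 4.0, against 10.09 to 10.53. PSAT1, the aminotransferase of serine synthesis, was at 4.07 and 4.11, against 9.63 to 11.13 (-6.23 ± 0.45), with a T-ALL line at 4.02. PHGDH and PSPH, the enzymes before and after it in that pathway, were at 10.33 and 10.44 and at 8.25 and 7.97 in the pair, against 9.50 to 10.85 and 7.67 to 8.75. The loss of signal in that pathway was thus at PSAT1 alone of these genes.

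Other genes of this tail were MYADM, a myeloid-associated membrane protein (4.37 and 4.16, against 8.98 to 10.12), and SDHAF3, an assembly factor of succinate dehydrogenase (4.05 and 4.12, against 7.83 to 9.18). EIF5A, a translation factor, was lower without reaching the floor, at 6.63 and 6.66, against 10.81 to 11.93, in all 3 probe sets. PAG1, an adaptor that holds SRC-family kinases in check, was at 4.46 and 4.35, against 7.55 to 10.66. PSD3 (-4.49) and EFNB2, an ephrin ligand (-4.46), were also called lower. CLEC14A was near the floor in the pair (4.85 and 4.57) and also in REH (4.85), against 11.93 to 12.86 in the rest. For HLA-DPA1 the probe sets disagreed. The one used here was at 6.13 in Nalm16 and 12.52 in Nalm30, against 12.75 to 14.76, but its other probe sets were at 9.82 and 8.59 in Nalm16, with differences of only -0.61 and -0.45. Its difference of -4.54 was -1.34 without Nalm16 and -7.73 without Nalm30.

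Some genes separated the pair from all 11 other lines. There were 24 genes below 5 in both lines of the pair and above 7 in every one of the 11 others, and 16 above 7 in both and below 5 in every other. With the high limit at 6 or 8 the counts were 101 and 22, or 5 and 9. The same counts with a limit of 7 for P12-ICHIKAWA and TALL-1, the most alike arrays of the series (r of 0.993), were 3 and 1. Besides NR3C1, CTSC, CRNDE, ETS1 and SDHAF3, the genes off in the pair included GPSM2, which orients the mitotic spindle (4.0 and 4.0, against 7.42 to 8.29 in the other BCP-ALL lines), TYW3, a tRNA-modifying enzyme (4.01 and 4.11, against 7.85 to 8.70), and CRYZ, a quinone reductase (4.39 and 4.08, against 7.62 to 9.02). The genes on in the pair alone included CDX2, a homeobox factor of the intestine (8.17 and 8.40, against 4.14 to 4.57), KCNMA1, a potassium channel (9.73 and 9.81, against 4.19 to 4.61), and HTRA1, a secreted protease (8.76 and 9.25, against 4.0 to 4.27). These 6 genes were singled out with their values already in view. So were other genes outside the naming rule, among them IGLL1, VPREB1, PHGDH, PSPH, EBF1, S100A13, CDC20, CCNB1, AURKB, MYC, BCL2 and CDKN2A.

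The enzymes that recombine antigen receptor genes were mostly lower. Of 8 measured genes of the list, which also holds ADA, 6 were called lower in the pair and none higher. Their median difference was -2.33, and over all kept genes 18.9% were called lower and 8.52% higher. RAG1 (chromosome 11) was at 4.0 and 4.04 in Nalm16 and Nalm30, against 9.25, 9.90, 10.99 and 8.19 in 697, Nalm6, REH and RS4,11 (-5.56 ± 0.71). RAG2, its neighbor on the chromosome, was at 4.31 and 4.35, against 8.42, 8.43, 9.84 and 7.75 (-4.28 ± 0.54). Both genes, near the floor in the pair, were well above it in every other BCP-ALL line. In T-ALL lines RAG1 ran from 4.0 to 11.26 and RAG2 from 4.26 to 8.42. XRCC4, which holds DNA ends for ligation, was at 4.19 and 5.01, against 7.49 to 7.75. PRKDC, the DNA-dependent protein kinase, was at 8.22 and 8.88, against 9.54 to 10.49, and DCLRE1C was also lower (-1.42). ADA, adenosine deaminase, is a purine enzyme and not part of recombination, and was lower too (-1.36). DNTT, the polymerase that adds untemplated bases, was not called because RS4,11 was at 8.55, within the range of the pair (8.49 and 8.56), while 697, Nalm6 and REH were at 11.80 to 12.41.

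**Figure D3:**
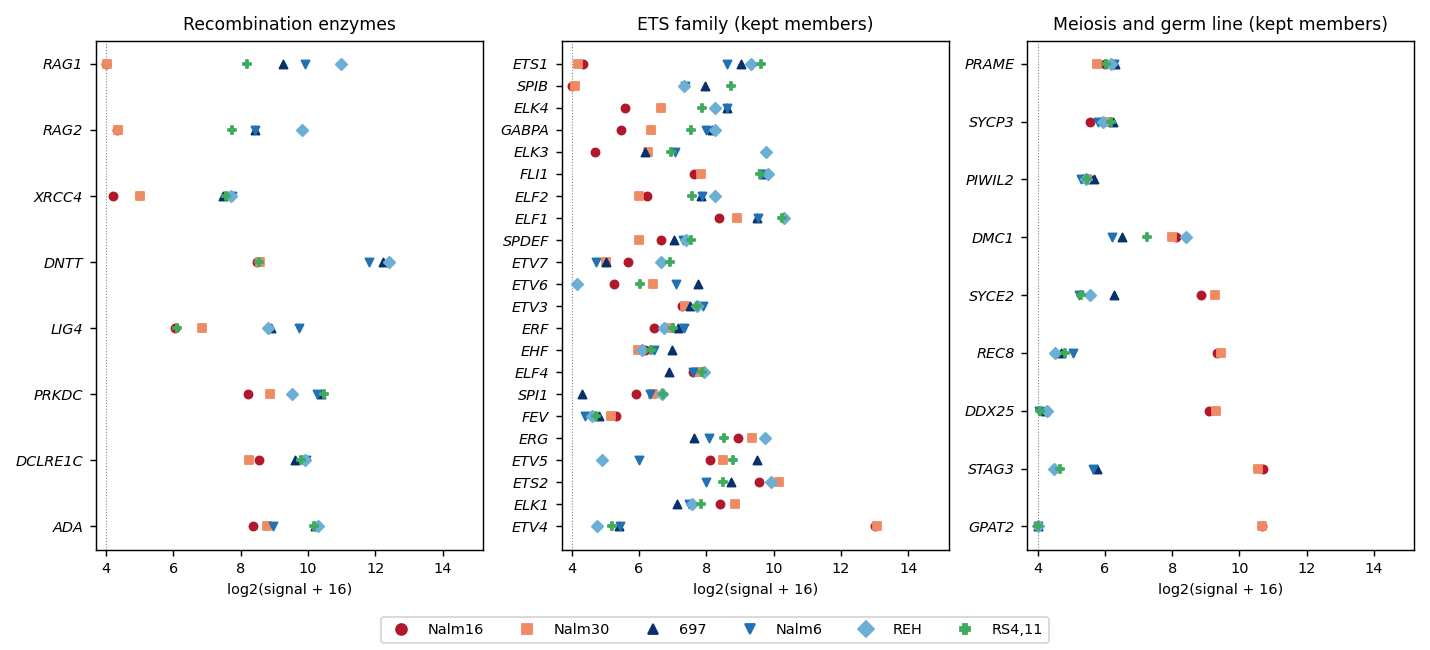
Level of each gene of the recombination enzyme list, ADA among them, and of the kept members of the ETS family and of a meiosis and germ line list. Values are log2(signal + 16), with a point for each BCP-ALL line (dotted line, the floor of 4). RAG1 and RAG2 are near the floor only in Nalm16 and Nalm30, ETS1 and ETV4 separate the pair in opposite directions, and 5 germ line genes are high only in the pair.

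The ETS family of transcription factors, which bind DNA around a GGAA core, had members on both sides. This list was picked with its values in view. Of 22 kept members, 2 were called higher and 7 lower (median -0.41). Over all kept genes the shares were 8.52% and 18.9% and the median -0.06, and nothing is read from the counts of a list picked this way. ETV4 was at 13.004 and 13.06 in Nalm16 and Nalm30, against 5.41, 5.44, 4.75 and 5.19 in 697, Nalm6, REH and RS4,11 (7.83 ± 0.27). ETS1, a factor of lymphocytes, was at 4.32 and 4.19, against 9.02, 8.61, 9.33 and 9.63 (-4.89 ± 0.32). SPIB was at 4.0 and 4.10, against 7.97, 7.37, 7.34 and 8.72 (-3.80 ± 0.42). The pair thus had a member that no other BCP-ALL line had, and lacked a pair of members that all 4 had. Also called lower were ELK4 (-2.22), GABPA (-2.08), FLI1 (-1.97), ELF2 (-1.77) and ELF1 (-1.26, and -0.99 without Nalm16), while ELK1 was higher by 1.11 (0.89 without Nalm30 and 0.98 without 697). SPI1 was at 5.91 and 6.41, against 4.31 to 6.72.

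Because members of this family were on both tails, promoters (250 bases before to 50 after a gene's start, RefSeq, GRCh38.p14) were searched for CCGGAAG and its reverse complement CTTCCGG, a form of the ETS core, on both strands. It was in 10.7% of 27305 promoters, in 18.8% of the 10102 kept genes with a promoter in the table, in 15.9% of 866 called higher and in 22.2% of 1919 called lower. Genes with signal in the pair alone could enter the higher set through the filter, so nothing is read from the gap between these shares. Of the 15 called genes with the largest difference in each direction, 12 higher and 12 lower ones had a promoter on record. A match was in 2 of those 12 higher genes and in 1 of those 12 lower genes. The promoters printed here, with the match in capitals, are those of ACOT4, near the floor in all other lines and high in the pair, and GABPA and ELK4, ETS factors lower in the pair. IDI1, of sterol synthesis and lower in the pair, held 4 matches, and NR3C1 held none.
ACOT4 (chr14:73591623-73591922, plus strand): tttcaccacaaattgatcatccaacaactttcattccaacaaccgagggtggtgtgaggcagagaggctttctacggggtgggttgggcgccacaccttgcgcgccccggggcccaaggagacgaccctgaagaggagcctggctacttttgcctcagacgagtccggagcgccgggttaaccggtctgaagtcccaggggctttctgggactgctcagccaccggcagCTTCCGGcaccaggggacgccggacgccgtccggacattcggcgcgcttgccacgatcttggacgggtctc
GABPA (chr21:25734722-25735021, plus strand): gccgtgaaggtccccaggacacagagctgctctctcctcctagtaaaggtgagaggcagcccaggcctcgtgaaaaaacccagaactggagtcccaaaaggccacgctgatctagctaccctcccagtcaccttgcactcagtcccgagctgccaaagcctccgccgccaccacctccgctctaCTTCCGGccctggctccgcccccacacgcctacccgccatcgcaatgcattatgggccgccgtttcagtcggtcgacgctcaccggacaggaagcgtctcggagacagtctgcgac
ELK4 (chr1:205631962-205632261, minus strand): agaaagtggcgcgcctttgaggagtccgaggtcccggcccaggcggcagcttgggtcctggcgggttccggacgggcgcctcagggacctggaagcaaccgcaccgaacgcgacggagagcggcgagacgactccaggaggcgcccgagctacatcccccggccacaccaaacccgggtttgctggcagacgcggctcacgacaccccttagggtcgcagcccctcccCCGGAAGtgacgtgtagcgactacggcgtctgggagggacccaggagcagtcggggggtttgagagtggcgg
IDI1 (chr10:1056655-1056954, minus strand): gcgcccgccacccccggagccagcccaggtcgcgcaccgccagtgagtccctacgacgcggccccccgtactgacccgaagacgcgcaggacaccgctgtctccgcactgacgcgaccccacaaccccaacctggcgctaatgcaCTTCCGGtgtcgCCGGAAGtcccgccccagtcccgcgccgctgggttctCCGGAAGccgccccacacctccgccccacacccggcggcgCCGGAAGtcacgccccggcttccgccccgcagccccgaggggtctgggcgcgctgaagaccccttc
NR3C1 (chr5:143404433-143404732, minus strand): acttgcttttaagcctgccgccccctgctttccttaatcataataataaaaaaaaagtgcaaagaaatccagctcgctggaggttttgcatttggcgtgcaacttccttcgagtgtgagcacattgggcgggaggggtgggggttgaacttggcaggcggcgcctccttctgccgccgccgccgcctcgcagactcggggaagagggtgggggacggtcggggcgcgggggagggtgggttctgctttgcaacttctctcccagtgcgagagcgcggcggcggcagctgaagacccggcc
The sequences show where the letters occur, and binding was not measured.

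Some genes of meiosis were on in the pair. This list too was picked with its values in view, and most of it was silent: of 29 measured genes, 5 were called higher. Of these, REC8, DDX25 and GPAT2 passed the filter through the pair alone, so nothing is read from the count beside the 8.52% over all kept genes. STAG3, a meiotic cohesin subunit, was at 10.69 and 10.57 in Nalm16 and Nalm30, against 5.77, 5.65, 4.48 and 4.66. REC8, the meiotic kleisin that joins the same ring, was at 9.34 and 9.45, against 4.52 to 5.06, although 1 of its probe sets was near the floor in all lines. SYCE2, of the synaptonemal complex, was at 8.85 and 9.28, against 5.23 to 6.27, and DDX25, a germ cell RNA helicase, at 9.10 and 9.30, against 4.05 to 4.28. GPAT2, given above, was the fifth. Not all were silent in T-ALL: REC8 had a median of 7.75 there and reached 8.78. SYCE2 reached 7.10 in T-ALL lines, STAG3 7.06, DDX25 6.43 and GPAT2 4.15. SYCP1, SYCP2, DDX4, MAEL, PIWIL1 and TDRD1 were near the floor in all 6 lines.

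Most other B-lineage genes were not called. Of 24 B-lineage transcription factors, 4 were called lower and 1 higher, and of 18 genes of the pre-B-cell receptor and its signaling, 1 lower and 2 higher. Neither list was above the 18.9% called lower over all kept genes, of which 8.52% were called higher. Besides SPIB, IKZF2 was at 4.99 and 4.77 in Nalm16 and Nalm30, against 7.29 to 9.74, and BACH2 (-2.42) and FOXP1 (-1.42) were lower. SYK, the kinase below the pre-B-cell receptor, was at 6.39 and 6.15, against 8.32, 9.58, 8.88 and 9.06 (-2.69 ± 0.36), and CD22, an inhibitory coreceptor, was higher at 12.05 and 11.94, against 9.14 to 10.95. EBF1 was at 9.84 and 10.44, against 10.39 to 11.09, and was not called. LCK and ZAP70, kinases better known from T cells, were at 9.65 and 10.03 and at 8.17 and 8.62, against 6.92 to 8.86 and 4.31 to 8.01, with the CD3 chains near the floor as given above. The difference of ZAP70, 1.87, was 1.14 without REH.

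Among surface molecules, 6 of 21 kept were called higher, against 8.52% over all kept genes, and 3 lower, a share under the 18.9% over all. CD27 and CD44 passed the filter only because of the pair, so nothing is read from the higher count. CD27, a TNF receptor family member of memory B cells, was at 8.89 and 9.77 in Nalm16 and Nalm30, against 4.37, 4.05, 4.10 and 4.23 (5.14 ± 0.30). CD44, the hyaluronan receptor, was at 9.85 and 9.81, against 5.29, 4.18, 4.33 and 9.15, with RS4,11 close to the pair. CD38 was lower (4.58 and 4.58, against 5.77 to 8.27), and PROM1 was at the floor in the pair and higher only in REH (6.44) and RS4,11 (10.97), so that its difference of -2.46 was -0.95 without RS4,11. MME, the CD10 antigen, was at 8.21 and 8.28 in the pair, inside the range of the others (4.80 to 10.22). Among integrins, ITGA4, the alpha chain of VLA-4, was at 5.08 and 5.34, against 8.50 to 10.01 (-4.03 ± 0.46), whereas ITGB2 and ITGA5 were higher by 1.85 and 1.63. Of 16 kept adhesion genes, 4 were called higher, CD44 among them, and 2 lower, against 8.52% and 18.9% over all kept genes.

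Antigen presentation genes did not move together. In the MHC class II list 3 of 15 were called lower and none higher, namely HLA-DPA1 by 1 probe set, HLA-DQB1 (6.28 and 5.69 in the pair, against 7.78 to 9.45) and RFXAP (-1.84). HLA-DRA was at 9.58 and 10.21, against 9.90 to 12.17. Both this count and that of the class I list were near the 18.9% called lower over all kept genes. In the class I list 3 of 15 were lower: ERAP2 (-3.76) and ERAP1 (-3.16), which trim peptides, and NLRC5 (-1.999), which drives class I transcription. Of 24 interferon-stimulated genes 3 were higher, among them IFITM1 (3.63) and ISG20 (2.85), and 7 lower, among them SAMD9 (-2.28) and IFIT3 (-2.23). Over all kept genes 8.52% were called higher and 18.9% lower.

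Some glucocorticoid response genes were higher although NR3C1 was at the floor. Of 14 kept genes of that list 5 were called higher, against 8.52% over all kept genes, 2 lower and 7 neither (median 0.38). SGK1, a kinase induced by steroid, was at 9.34 and 9.72 in Nalm16 and Nalm30, against 5.88, 5.03, 6.64 and 7.18 (3.35 ± 0.58). TSC22D3, the leucine zipper GILZ, was at 10.41 and 10.53, against 6.46, 8.59, 8.09 and 8.66 (2.52 ± 0.63), and BTG1 was higher by 1.94. These 3 genes, known as targets of the receptor, were thus higher in the lines where its own signal was at the floor. NFKBIA and DDIT4 were higher by 1.46 and 1.10, and SOCS1 was lower (-1.25).

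Mitotic genes were called in the low direction alone. Of 30, 12 were called lower and none higher, against 18.9% and 8.52% over all kept genes. Their median was -0.53, against -0.06 over all kept genes, and the shift was larger in Nalm16 (-0.81) than in Nalm30 (-0.17). NUF2, of the kinetochore, was at 5.12 and 6.28, against 8.36 to 9.14 (-3.12 ± 0.39), and CDK1, the mitotic kinase, at 6.996 and 8.28, against 10.35 to 10.83 (-2.98 ± 0.38). CENPE (-2.75) and MAD2L1 (-2.52) were also lower. MKI67, the proliferation antigen, was at 6.89 and 8.36, against 8.44 to 9.10, so that Nalm30 lay just below the others, and its difference of -1.08 was -0.35 without Nalm16, -1.82 without Nalm30 and -0.95 without REH, and -0.75 after quantile normalization. CDC20, CCNB1 and AURKB were not lower in the probe sets used: CDC20 was at 10.78 and 10.77, against 9.84 to 10.30, CCNB1 at 9.93 and 10.79, against 9.88 to 10.47, and AURKB at 9.70 and 10.06, against 9.41 to 9.78. The other probe set of CCNB1 ran the opposite way. After quantile normalization 9 mitotic genes were called lower and none higher, and after centring 9 and 2. Of 37 DNA replication genes 4 were called lower (RFC1 at -2.22, ORC2 at -1.42, MCM4 at -1.26 and PRIM1 at -1.02) and none higher, a share below the 18.9% over all kept genes. The call of PRIM1 was lost without Nalm16 (-0.70) or without REH (-0.86).

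**Figure D4:**
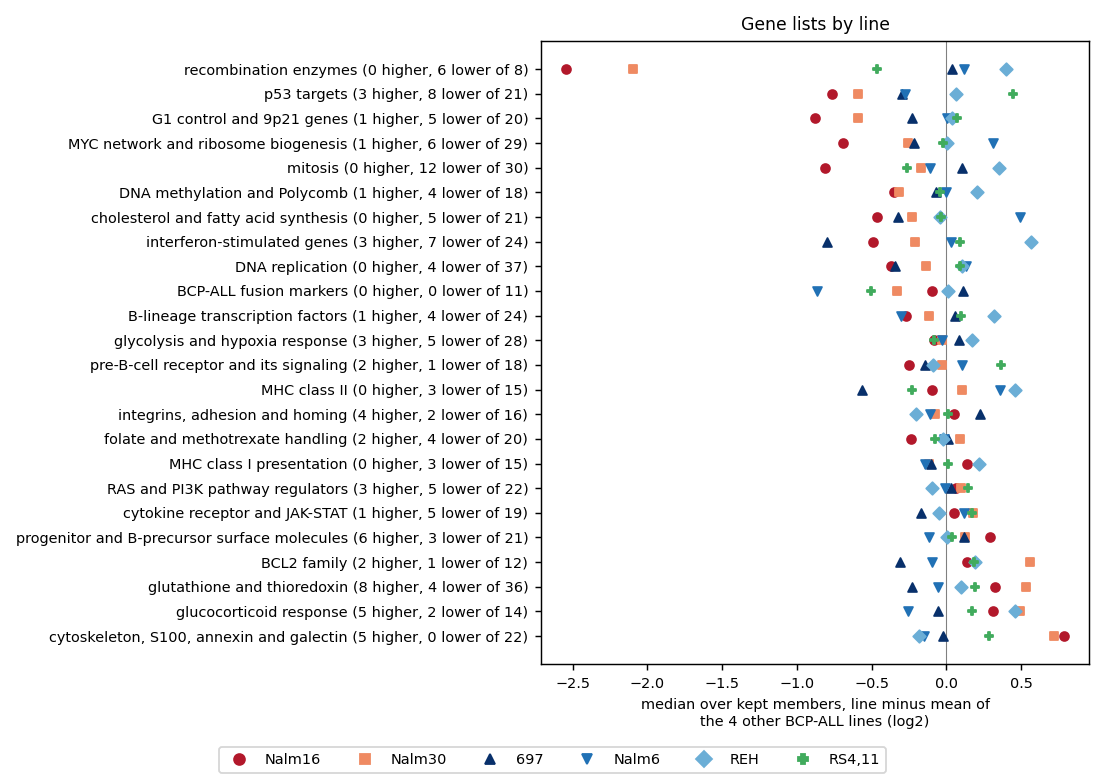
Median difference of each line from the mean of the 4 other BCP-ALL lines over the kept members of each gene list with at least 8 of them, leaving out 4 lists added later (log2), with the number called in the pair beside its name. The list of recombination enzymes, which also holds ADA, lies at -2.55 in Nalm16 and -2.09 in Nalm30, away from the other lists shown.

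In the control of G1, TFDP1, CCNE2 (-3.26), CDKN2D (-2.51), RBL1 (-2.50) and RB1 (-1.70) were called lower and CCND2 higher (1.83), out of 20 kept. Over all kept genes 8.52% were called higher and 18.9% lower, which stands beside each count in this paragraph. Of 21 p53 targets, 3 were higher and 8 lower (median -0.93). PLK2, a stress-induced kinase, was at 8.78 and 8.96 in Nalm16 and Nalm30, against 4.0 to 5.37, and TP53I3 was higher by 2.30. PLK2 passed the filter through the pair alone. MDM2, the p53 ubiquitin ligase, was at 7.06 and 7.83, against 9.60 to 10.69, in all 9 probe sets, and RRM2B was lower (-2.15). The list had calls on both sides, and after quantile normalization 4 were higher and 5 lower. In the BCL2 family, BMF (2.78) and BAD (1.20) were higher and PMAIP1 lower (-1.46), out of 12, with BMF past the filter through the pair alone. BCL2 was at 9.64 and 9.61, against 7.84 to 10.44. MYC was at 11.85 and 11.69, against 10.75 to 11.64, short of the limit of 1. Of 29 genes of the MYC network and ribosome biogenesis 6 were lower, near the share over all kept genes, and 1 higher. NOP58 was at 4.67 in Nalm16 and 7.60 in Nalm30, against 9.57 to 10.41 (-3.96, and -2.49 without Nalm16).

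In metabolism, redox genes split. Of 36 kept genes of the glutathione and thioredoxin systems, 8 were called higher and 4 lower (median 0.38), against 8.52% and 18.9% over all kept genes. GPX3 passed the filter through the pair alone, so nothing is read from the higher count. PRDX2, a peroxiredoxin, was at 11.999 and 12.02 in Nalm16 and Nalm30, against 11.46, 4.0, 10.79 and 9.17, and its difference of 3.15 was 1.53 without Nalm6. GPX3 was higher by 2.20 and GSTZ1 by 2.06. SLC7A11, which imports cystine for glutathione, was near the floor at 4.0 and 4.47, against 5.69 to 7.68, and CHAC2 (-2.50, and -1.27 without Nalm16) and TXNRD1, thioredoxin reductase (-1.10), were lower. Of 20 folate and methotrexate genes, 4 were lower and 2 higher, near the 18.9% and 8.52% over all kept genes. GGH, which cleaves polyglutamates from folates and methotrexate, was at 6.42 and 6.89, against 8.42 to 10.38 (-2.83 ± 0.58). MTR (-1.96), MTRR (-1.70) and ABCC4 (-1.19) were also lower. Without Nalm16 the difference of MTRR was -1.13 and that of ABCC4 -0.97, under the limit. Of 28 glycolysis and hypoxia genes, 3 were higher, among them NDRG1 (2.68) and HK1 (2.17), and 5 lower, among them ALDOC (-2.87) and BNIP3L (-2.42, and -1.49 without Nalm16). Both counts were near the shares over all kept genes. Of 21 genes of sterol and fatty acid synthesis, 5 were called lower and none higher, near the share over all kept genes, and after quantile normalization 3 lower and 2 higher. The 5 included ELOVL6 (-2.53), IDI1 (-2.21), HMGCS1 (-1.76) and SC5D (-1.35, and -0.96 without Nalm16).

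Cytoskeletal genes were mostly higher or not called. Of 22 kept genes 5 were called higher and none lower (median 0.69, against 8.52% and 18.9% called and a median of -0.06 over all kept genes), and 18 had a positive difference. S100A6 passed the filter only because of the pair, so nothing is read from the higher count. Without Nalm16, 8 were called higher, and against all 11 other lines 2. Besides S100A6, CAPG, an actin-capping protein, was at 11.46 and 11.29 in Nalm16 and Nalm30, against 6.57, 5.18, 6.60 and 9.28 (4.47 ± 1.01), CNN2 was higher by 2.07 and ACTN1 by 1.89. S100A13 was at 9.94 and 10.00, against 7.20 to 8.47.

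Of 19 kept genes of cytokine receptors and JAK-STAT signaling, 1 was called higher and 5 lower, of 22 RAS and PI3K regulators 3 and 5, and of 18 genes of DNA methylation and Polycomb 1 and 4. These counts stand beside 8.52% called higher and 18.9% lower over all kept genes, and nothing is read from them. SOCS2 (-2.41), IL21R (-1.94) and JAK2 (-1.57) were lower and STAT5A (1.95) higher, and PIK3R1 (-2.48), RASA2 (-2.40) and PTPN11 (-1.56), of the PI3K and RAS pathways, were lower. KDM6A, an X-linked histone demethylase, was at 4.0 in both lines of the pair, against 6.69, 6.90, 7.29 and 7.58 in 697, Nalm6, REH and RS4,11, in 3 of 4 probe sets. SUZ12 (-2.53) and EZH2 (-1.81), of Polycomb repressive complex 2, were lower. CEBPA, a myeloid factor, was at 8.02 and 8.02, against 5.76, 4.0, 4.17 and 6.27. No marker of the common BCP-ALL fusions was called, of 11 kept.

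The differences of the pair followed the chromosomes on which genes lie. Relative to the median over all kept genes, the median difference was lowest on chromosome 13 (-0.77 over 218 genes), followed by 4 (-0.58 over 425) and 8 (-0.49 over 428). It was highest on chromosome 21 (0.48 over 142 genes), followed by 20 (0.43 over 368), 14 (0.37 over 422) and 18 (0.33 over 176). On chromosome 13, 6.42% of genes were called higher and 38.1% lower, and on chromosome 4, 4.71% and 35.1%. On chromosome 14, 22.7% were called higher and 11.6% lower, and on chromosome 21, 19.0% and 5.63%, against 8.52% and 18.9% over all kept genes. On the X chromosome the median was 0.19. The order held in each line of the pair: chromosome 13 stood at -0.84 in Nalm16 and -0.64 in Nalm30, and chromosome 21 at 0.62 and 0.40. Without the filter on dim genes, chromosome 13 stood at -0.16 and chromosome 21 at 0.21. In the 4 other lines the chromosome medians stayed between -0.16 and 0.17. Each of these lines, unlike the pair, is part of the mean it was set against, which narrows this range.

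**Figure D5:**
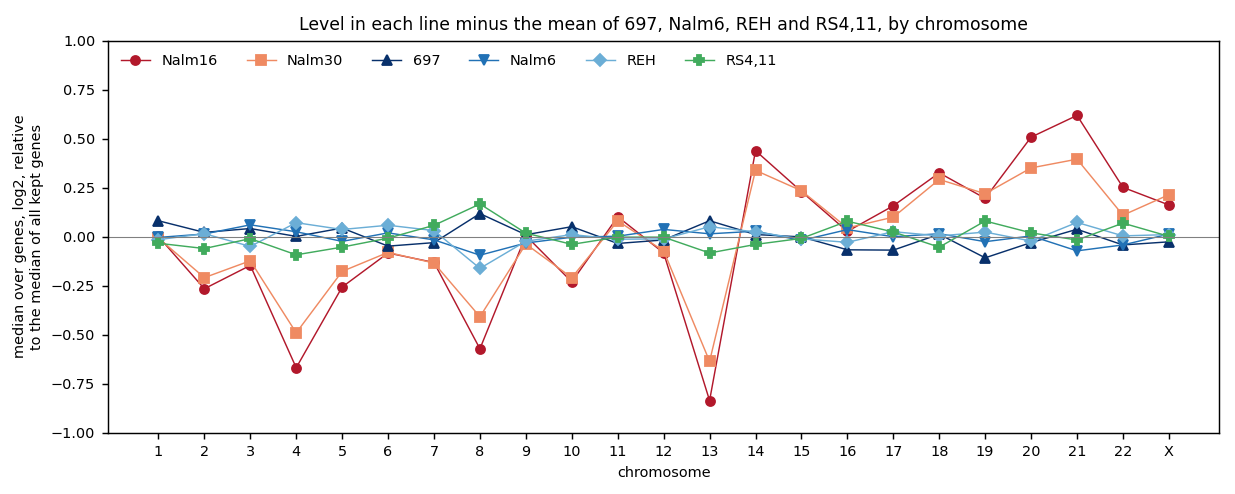
Median over the kept genes of each chromosome of a line's level minus the mean of the 4 other BCP-ALL lines, relative to the line's median over all kept genes (log2), with 1 series of points per line. Nalm16 and Nalm30 run together from -0.84 to 0.62, and the 4 other lines, each part of the mean used, stay between -0.16 and 0.17.

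Differences also ran with gene size and with level. With kept genes in 4 groups of equal size, the median difference was 0.19 in the group with the shortest genomic span and -0.34 in that with the longest. Grouped instead by mean level in the 4 others, it was 0.30 in the lowest group and -0.32 in the highest. That mean is itself part of the difference. Genes of chromosomes 4, 13 and 18 had median spans of 48.7, 50.8 and 50.2 kb. Among genes of middle span (11.2 to 68.6 kb), chromosome 13 stood at -0.74, 4 at -0.66 and 8 at -0.61, and 21 at 0.53, 20 at 0.45, 14 at 0.32 and 18 at 0.29. The part of gene span in the chromosome differences was not tested further, and that of level was not tested. A change in copies of a chromosome, which was not measured, and a change in RNA level per copy cannot be told apart here, nor can fewer cells with a transcript and less of it per cell.

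Within the pair, Nalm16 and Nalm30 differed mainly in one direction. By at least 1 log2 unit, Nalm16 was higher at 156 kept genes (1.26%) and lower at 1038 (8.36%), and by at least 2 units at 9 and 92, and the median of Nalm16 minus Nalm30 was -0.23. The array of Nalm16 also had the lower upper quartile and the larger share at the floor, as given above, and their part in this was not tested. Of the 2340 genes called lower in the pair, 1993 were lower in Nalm16 than in Nalm30, and the median difference from the 4 others was -2.003 in Nalm16 and -1.44 in Nalm30. Of the 1057 genes called higher, only 288 were higher in Nalm16 than in Nalm30, and the medians were close, at 1.40 in Nalm16 and 1.55 in Nalm30. Over kept genes the differences of Nalm16 and Nalm30 from the 4 others correlated at 0.89, as a description, since both use the same 4 arrays.

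A few genes differed widely between Nalm16 and Nalm30 in the probe set used. H4C13, a histone H4 gene, was at 8.86 in Nalm16 and 4.0 in Nalm30, with 7.28 to 7.67 in the 4 others. THSD7A was at 8.02 and 4.55, and REH was at 10.83. GH2 (7.93 and 4.26), CIMAP1A (7.01 and 4.61), INSM1 (6.38 and 4.19), CD70 (6.92 and 4.75), SLC29A4 (6.62 and 4.46) and CLSTN2 (6.16 and 4.0) were also higher in Nalm16. For HLA-DPA1 the wide gap was in 1 probe set only, the others being at 9.82 and 8.59 in Nalm16 and at 10.75 and 9.25 in Nalm30. SAMHD1, a dNTP hydrolase, was at 6.39 in Nalm16 and 10.37 in Nalm30, and CRAT, carnitine acetyltransferase, at 5.91 and 9.97. KANK3 (5.30 and 9.07), SCG2 (5.35 and 8.97), CDC42EP5 (5.22 and 8.77), ABHD4 (7.73 and 11.20) and TNFSF13, the cytokine APRIL (6.11 and 9.50), were likewise lower in Nalm16. SAMHD1 was at 7.60 to 13.83 in the 4 others, so that Nalm16 lay below all of them and Nalm30 within their range.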

How the data were processed

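RNA of 13 untreated ALL cell lines, extracted after 30 h of culture, was hybridized to Affymetrix HG-U133 Plus 2.0 arrays, 1 per line. Per the labels and the study's methods, the authors summarized probe sets with the iterPLIER algorithm and deposited log2 values of the signal plus 16, with Affymetrix Expression Console named in the submitters' processing notes. The sources used here do not state a scaling between arrays or the software version. The table held 42450 probe sets, of which 38125 carried 1 gene symbol in the platform annotation and 1742 several, and symbols were updated by gene ID to RefSeq (GRCh38.p14). Probe sets of several genes were left out, except 20 whose symbols now name 1 gene. Each gene was read by its probe set with the highest mean over 13 arrays.

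Differences and standard errors came from limma 3.58.1 in R 4.3.3 (lmFit and eBayes on 6 BCP-ALL arrays), checked on simulated data. Arrays hold no read counts, and the standard errors come from the spread between lines. Calls, filter and limits are given where first used, and no p-value was computed for this pair because it was chosen on these values. The pair, the 29 gene lists and the rules were chosen with earlier results of these data known, and 4 further lists after values were seen. In each direction the 15 called genes with the largest difference were named, then up to 4 called genes of each list, 10 defining markers where measured, and the 8 genes in each direction that differed most between Nalm16 and Nalm30. XIST and Y-linked genes were left out, and some further genes were named after their values were seen. Other probe sets, scalings, filters and limits, leaving out each line, and the pair against all 11 other lines were tried. NK, stromal and erythroid marker lists had no called gene.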

Additional observations from a re-analysis of the deposited data

Results flagged for a closer look

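In each of the 160 named genes the 4 other BCP-ALL lines were searched for a line far from the remaining 3 by Dixon's ratio, which chance passes in about 1 of 20 groups, and 16 passed. RS4,11 was high for S100A6 (9.49, against 4.77 to 4.96 in the remaining 3), HOPX (7.26, against 4.28 to 4.48) and IGLL1 (12.08, against 11.71 to 11.73). It was low for DNTT (8.55, against 11.80 to 12.41), ERAP2 (5.72, against 8.60 to 9.06), TP53I3 (4.67, against 5.83 to 5.97) and ALDOC (6.69, against 8.02 to 8.16). REH was high for MPO (12.11, against 5.17 to 5.50) and CCNB1 (10.47, against 9.88 to 9.92), and low for VPREB1 (4.15, against 10.70 to 11.38), CLEC14A (4.85, against 11.93 to 12.86), IGKC (4.62, against 5.93 to 6.08) and MAD2L1 (10.46, against 10.82 to 10.89). Nalm6 was high for S100A16 (10.21, against 4.85 to 5.20) and low for AURKB (9.41, against 9.73 to 9.78). The line 697 was high for CDKN2A (6.29, against 4.78 to 4.89), while Nalm16 and Nalm30 were at 6.02 and 5.15.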

How the results depend on the processing

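These results rest on few lines: 2 lines that resemble each other stand against 4, each read once, so the precision of an array was not measured. No paired analysis was possible because the replicate numbers only name cell lines. With the limit at 2 log2 units, 279 genes were called higher and 812 lower, and the counts of calls were 3 for recombination enzymes, 6 for mitosis, 3 for p53 targets, 3 for glutathione and thioredoxin, 3 for cytoskeletal genes and 2 for the glucocorticoid list. With quantile normalization, 2008 genes were higher, with 9 of the cytoskeletal list higher and 5 p53 targets lower, and centring gave 8 cytoskeletal genes. Against all 11 other lines, 2 cytoskeletal genes were higher and 4 p53 targets lower, and the median of all probe sets gave 4 glutathione and thioredoxin genes. Leaving out each line in turn gave 1046 to 1343 genes higher and 2046 to 3051 lower, 6 to 8 recombination enzymes, 10 to 15 mitotic genes and 7 to 10 p53 targets lower, and 4 to 6 glucocorticoid, 6 to 9 glutathione and thioredoxin and 5 to 8 cytoskeletal genes higher. The r of Nalm16 with Nalm30 was 0.949 and 0.940 with the most variable probe set, 0.957 with the median of probe sets, 0.943 after quantile normalization, 0.960 without the filter and 0.959 over all probe sets. The median r of the pair with the 4 others was 0.736 and moved to 0.660, 0.728, 0.838 and 0.845 under the most variable probe set, quantile normalization, no filter and all probe sets, to 0.703 with the filter on the mean and to 0.690 against all 11 lines, and it ran from 0.690 to 0.741 without each line. Nalm16 exceeded Nalm30 by 2 units at 9 genes, at 5 with the median of probe sets and at 16 after quantile normalization, and fell short at 92, or 51 with the median of probe sets. Chromosome 13 stood at -0.91 with the most variable probe set, -0.68 with the median of probe sets and -0.16 with no filter, and chromosome 21 at 0.59 and 0.21 with the first and the last and 0.40 against 11 lines. Without each line they ran from -0.84 to -0.64 and from 0.40 to 0.62, the values of Nalm30 alone being -0.64 and 0.40, and that of Nalm16 alone 0.62 for chromosome 21. Of 138 named genes that were called, 66 kept their call under every alternative and 4 turned direction: HLA-DPA1 (0.51), LCK (-0.25) and SYK (0.078) against all 11 lines, and KLHL35 (-0.011) with the median of probe sets. Quantile normalization and centring each took 10 named calls. The cause of these changes was not tested.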
